A study of Rattus norvegicus with 12 samples.

Results

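Tspan2, Cldn11, Mag and Mog, which encode proteins of the myelin membrane, are described here in primary rat oligodendrocyte precursor cells (OPCs) exposed to inflammatory cytokines and to galinex. They were taken by name, with earlier results of these data known. A name could be given only to genes in the study's own list of cytokine differences. They are 4 of the 13348 genes tested among the 30562 genes of the count tables. Each of the 4 passed the filter on low counts, a mean of at least 5 over the libraries, and had at least 10 counts in every library. RNA sequencing covered 12 libraries, with 3 replicates in each of 4 groups. The cells came from the cortex of wild-type Sprague-Dawley pups of both sexes, pooled, at postnatal days 0 to 2. They were collected by shaking mixed glial cultures, after an earlier shaking meant to discard microglia, and all treatments began at the switch to differentiating medium. CTL cells received no cytokines and no galinex. CTK-2 cells received 2 ng/mL of each of the cytokines IFN-γ, IL-1β and TNF-α. GAL cells received galinex, an agonist of the receptor GPR17, at 10 nM, and CTK2+GAL cells received the same cytokines and then, 6 h later, the same dose of galinex. Cells without galinex were given an equal amount of DMSO, and RNA was collected 24 h after that addition. The sources give no separate culture for each replicate, so the p-values measure the spread between these libraries, which may be technical.

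Oligodendrocytes wrap axons in a compact, lipid-rich membrane sheath, and the proteins of that sheath appear as OPCs leave the cell cycle and mature. The 4 genes encode proteins of different places in it. TSPAN2, a tetraspanin with 4 membrane-spanning segments, is made in cells of the oligodendrocyte lineage as they differentiate. Claudin 11, from Cldn11, builds the tight junctions between the layers of central myelin. Myelin-associated glycoprotein, from Mag, is a sialic acid-binding adhesion protein on the innermost layer, where it faces the axon. Myelin oligodendrocyte glycoprotein, from Mog, is an immunoglobulin-type protein on the outermost surface, appears late in maturation and is a well-known target of antibodies in demyelinating disease. In bulk RNA of a culture, fewer cells of a type and less RNA per cell cannot be told apart.

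The count tables place the genes on the rat genome build mRatBN7.2. Tspan2 (ENSRNOG00000023338) lies on the plus strand of chromosome 2 from 190177741 to 190219660, and Cldn11 (ENSRNOG00000010263) lies on the minus strand of the same chromosome from 112207745 to 112221050. Mag (ENSRNOG00000021023) lies on the minus strand of chromosome 1 from 86148228 to 86163656, and Mog (ENSRNOG00000000775) lies on the plus strand of chromosome 20 from 1513239 to 1523474. The spans of the first 3 genes overlap no other annotated gene. That of Mog overlaps 1 gene on the opposite strand, and the counting used strand. Read pairs were counted over exons, whose joined length is 3893 bases in Tspan2, 1848 in Cldn11, 2629 in Mag and 1743 in Mog.

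For Mog no RefSeq promoter was matched, so the sequences just before the other 3 genes are shown. Whether they have a part in the cytokine differences was not tested. They come from RefSeq promoters on GRCr8, a later rat build, and are limited to the bases outside the annotated span of the gene, read 5′ to 3′ on the strand of the gene. Capitals mark matches to a GC box (GGGCGG) or a CCAAT box (CCAAT) on either strand.
Tspan2, chr2:192866030-192866211, plus strand: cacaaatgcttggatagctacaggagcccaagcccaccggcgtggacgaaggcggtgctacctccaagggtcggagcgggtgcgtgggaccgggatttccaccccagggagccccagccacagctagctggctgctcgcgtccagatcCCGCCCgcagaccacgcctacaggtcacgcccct
Cldn11, chr2:114149540-114149789, minus strand: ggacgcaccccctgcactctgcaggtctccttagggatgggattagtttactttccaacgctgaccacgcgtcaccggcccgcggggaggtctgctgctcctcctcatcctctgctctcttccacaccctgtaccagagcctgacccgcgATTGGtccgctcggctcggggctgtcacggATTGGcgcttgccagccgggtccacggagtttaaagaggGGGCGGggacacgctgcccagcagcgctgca
Mag, chr1:95291134-95291294, minus strand: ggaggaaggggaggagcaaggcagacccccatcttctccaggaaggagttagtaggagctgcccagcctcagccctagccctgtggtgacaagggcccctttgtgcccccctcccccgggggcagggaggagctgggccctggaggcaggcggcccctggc
The 3 stretches hold 182, 250 and 161 bases, and their GC content is 67.0%, 64.8% and 69.6%. Tspan2 has 1 GC box, which begins 34 bases before the gene, and 21.3% of the 33469 promoters in the RefSeq table hold one in their first 182 bases. Each share here counts as many bases as the stretch holds, from the upstream end of every promoter. For Tspan2 and Mag the shares can therefore leave out the bases nearest to other genes, and they describe a window further upstream. Cldn11 has 1 GC box at 31 bases, held by 30.5% of promoters, and 2 CCAAT boxes at 100 and 70 bases, held by 34.0%. The matches did not overlap one another. The Mag stretch holds neither motif, against 18.1% and 23.1% of promoters. A TATA box (TATAAA), an E-box (CAGCTG), a SOX motif (AACAAT), a MYRF motif (CTGGCAC), a GAS element (TTCNNNGAA) and an ISRE-like element (GAAA, then 2 bases of any kind, then GAAA) were also searched on both strands, and their letters are not in these 3 windows. A match of letters is a description of the sequence and not a binding site.

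Library totals ran from 2600797 counts in GAL replicate 1 to 8978185 in CTK2+GAL replicate 3. CTL replicate 3 and GAL replicate 3 stood apart from their groups in the RNA that cytokines raise. Levels are given as CPM, each library's counts scaled to a common total and to the library size that edgeR's TMM method sets. Genes raised by these cytokines were listed with earlier results of these data known, and 20 of the 27 listed had a symbol and were tested. The summed level of these 20 genes was 94.6 and 109.5 CPM in CTL replicates 1 and 2 but 1365 in replicate 3. In GAL it was 92.3 and 112 CPM in replicates 1 and 2 but 1333 in replicate 3. The libraries with cytokines were at 7104 to 7876 CPM. The fold changes of the 4 genes, the ratios between them and the calls of the related genes are given with and without these libraries.

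Tspan2 was measured at 513, 471 and 435 CPM in the 3 CTL libraries and at 469, 505 and 444 CPM in GAL. With cytokines it was at 155, 154 and 151 CPM in CTK-2 and at 153, 152 and 166 CPM in CTK2+GAL. The 6 libraries with cytokines were all below the 6 without, with a wide gap between them, and the libraries with and without galinex were mixed on either side of it. The mean was 473 ± 39.3 CPM in CTL, 473 ± 30.7 in GAL, 153 ± 1.90 in CTK-2 and 157 ± 7.92 in CTK2+GAL (SD, n = 3 in each).

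Cldn11 was measured at 101, 110.1 and 94.4 CPM in CTL and at 113, 111 and 106 CPM in GAL. It was at 61.5, 59.8 and 55.4 CPM in CTK-2 and at 54.0, 56.1 and 62.9 CPM in CTK2+GAL. Again the cytokine-treated libraries were all lower, and the lowest library without cytokines, CTL replicate 3, stood well above the highest with them. The group means were 102 ± 7.88 in CTL, 109.6 ± 3.65 in GAL, 58.9 ± 3.14 in CTK-2 and 57.7 ± 4.65 CPM in CTK2+GAL (SD, n = 3).

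Mag was measured at 180.1, 198 and 153 CPM in CTL and at 177, 159.6 and 157 CPM in GAL. With cytokines it was at 80.9, 88.3 and 73.7 CPM in CTK-2 and at 83.0, 79.4 and 82.2 CPM in CTK2+GAL. The CTL libraries of this axon-facing adhesion protein were the most spread of the 4 groups, and the cytokine-treated libraries still did not reach them. The means were 177 ± 22.8 in CTL, 164 ± 10.9 in GAL, 81.0 ± 7.29 in CTK-2 and 81.5 ± 1.92 CPM in CTK2+GAL (SD, n = 3).

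Mog was far less abundant, with 34, 34 and 36 counts in CTL, which are 5.85, 6.76 and 5.84 CPM. GAL held 18, 41 and 40 counts, or 6.98, 6.87 and 6.87 CPM, and the first of these belongs to GAL replicate 1, the library with the lowest total. CTK-2 held 16, 17 and 10 counts, or 3.35, 3.09 and 1.85 CPM, and CTK2+GAL held 17, 22 and 30 counts, or 3.30, 3.91 and 3.32 CPM. The same order was therefore seen as for the other 3 genes, with the cytokine-treated libraries below the rest, but on 10 to 41 counts for each library. The means were 6.15 ± 0.528 in CTL, 6.91 ± 0.0652 in GAL, 2.76 ± 0.798 in CTK-2 and 3.51 ± 0.342 CPM in CTK2+GAL (SD, n = 3). The closeness of the 3 GAL values is narrower than the counting error of counts of this size.

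**Figure D1:**
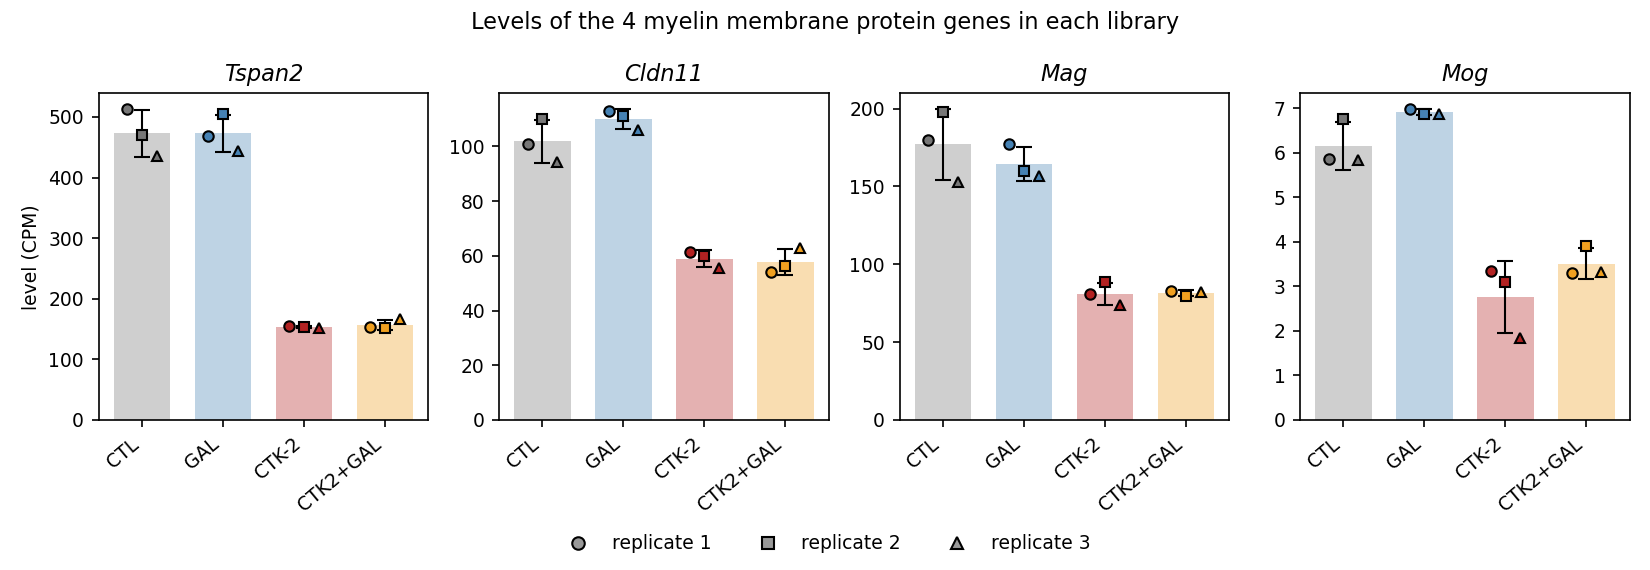
Level in CPM (vertical axes, each starting at 0) of Tspan2, Cldn11, Mag and Mog by group, with 1 point for each library (circle, square and triangle for replicates 1, 2 and 3) and the mean ± SD of each group. In every panel the 6 libraries with cytokines lie below the 6 without, as for Tspan2 with 151 to 166 CPM against 435 to 513 CPM.

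To compare levels between genes, CPM were divided by exon length in kilobases. In CTL the order was Tspan2 at 121 ± 10.1, Mag at 67.3 ± 8.66, Cldn11 at 55.2 ± 4.27 and Mog at 3.53 ± 0.303 CPM per kb (SD, n = 3). On this scale Tspan2 lay at percentile 96.8 of the genes tested, Mag at 93.3, Cldn11 at 91.3 and Mog at 28.8. Mag and Cldn11 are neighbours whose libraries overlapped in each of the 4 groups, while Tspan2 lay above both and Mog below both without overlap. In CTK2+GAL the levels per kb were 40.3 ± 2.03 for Tspan2, 31.0 ± 0.731 for Mag, 31.2 ± 2.52 for Cldn11 and 2.01 ± 0.196 for Mog, so that the 3 abundant genes lay closer together than without cytokines. The percentile of Tspan2 was then 87.7, and that of Mog was 17.8.

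The question of whether cytokines changed the 4 genes was tested in CTK2+GAL versus GAL, because each symbol used here belongs to a gene in the study's own list of differences between CTK-2 and CTL. Same-numbered CTL and GAL libraries deviated together from their group means, so this comparison is not wholly separate from the one behind that list. A gene was called when its adjusted p in edgeR's quasi-likelihood test was at most 0.05 and its log2 fold change was at least 0.59 in size. Tspan2 fell to 33.2% of its level in GAL (95% confidence interval 30.0% to 36.8%), a log2 fold change of -1.59 (SE 0.0700) with an edgeR adjusted p of 5.4e-12. Mag fell to 49.9% (44.0% to 56.6%), a log2 fold change of -1.0 (SE 0.0864, edgeR adjusted p 3.1e-08). Cldn11 fell to 53.2% (47.7% to 59.3%), a log2 fold change of -0.91 (SE 0.0743, edgeR adjusted p 1.5e-08). Mog fell to 50.8% (37.0% to 69.8%), a log2 fold change of -0.98 with the larger SE of 0.218 that its low counts give (edgeR adjusted p 0.0014).

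The 4 genes were thus called lower, and in each the 3 CTK2+GAL libraries lay below the 3 GAL libraries. Among the genes tested, 5.74% were called lower in this comparison, 17.4% were called in either direction and 24.0% had CTK2+GAL libraries wholly below GAL. Of the 1775 genes with a symbol, which are in the study's list for CTK-2 and CTL, 26.7% were called lower and 85.6% in either direction. A call of genes chosen from that list was therefore likely beforehand. The median log2 fold change of the genes tested was 0.0062. Of the 13348 genes, 81 had a lower log2 fold change than Tspan2, against 294 for Mag, 331 for Mog and 395 for Cldn11. In GAL replicate 3, which stood apart, Tspan2 was at 91.2% of the mean of the other 2 GAL libraries, Cldn11 at 94.5%, Mag at 93.2% and Mog at 99.3%, the lowest of the group except for Mog. With CTL replicate 3 and GAL replicate 3 both left out, the log2 fold changes were -1.63 for Tspan2, -0.94 for Cldn11, -1.03 for Mag and -0.98 for Mog, and the 4 calls remained.

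In CTK-2 versus CTL, where the symbols came from called genes and the values are a description only, the log2 fold changes were -1.62 (SE 0.0702) for Tspan2, -1.12 (SE 0.0862) for Mag, -0.79 (SE 0.0749) for Cldn11 and -1.15 (SE 0.237) for Mog. These leave 32.4%, 45.9%, 57.8% and 45.0% of the CTL level. In that comparison 17.3% of the genes tested were called, 5.79% were called lower and 23.8% had CTK-2 libraries wholly below CTL. Tspan2 had the largest decrease of the 4 in both comparisons and Cldn11 the smallest, while the intervals of Mag, Cldn11 and Mog overlapped one another in both. In CTK-2 versus CTL the interval of Mog, -1.65 to -0.65, also overlapped that of Tspan2, -1.77 to -1.48. There the intervals of Mag, -1.30 to -0.94, and Cldn11, -0.95 to -0.63, overlapped only at their ends. In CTL replicate 3 Tspan2 was at 88.4% of the mean of the other 2 CTL libraries, Cldn11 at 89.3%, Mag at 80.8% and Mog at 92.6%, each the lowest of its group. Without CTL replicate 3 and GAL replicate 3 the log2 fold changes in CTK-2 versus CTL were -1.68, -0.84, -1.22 and -1.19 for Tspan2, Cldn11, Mag and Mog.

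**Figure D2:**
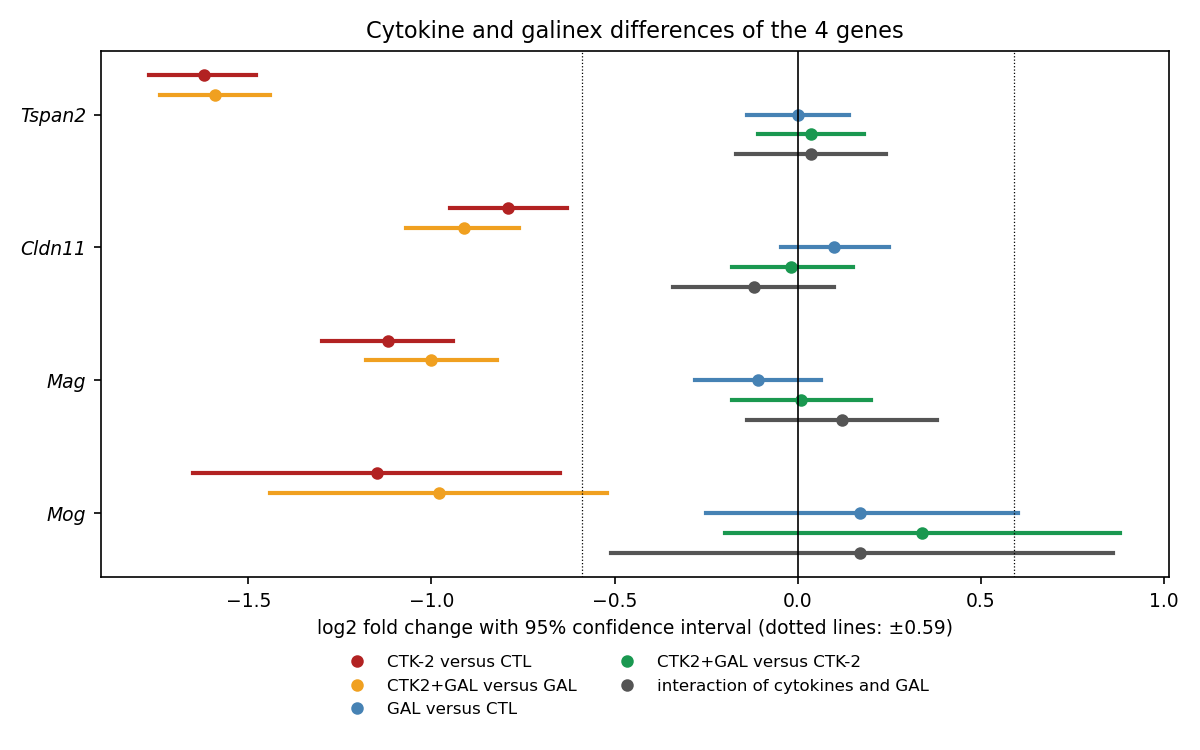
Log2 fold change (horizontal axis) with its 95% confidence interval for each of the 4 genes in the 4 comparisons between groups and in the interaction of cytokines and galinex. Dotted lines mark the call threshold of 0.59 in either direction. The intervals of both cytokine comparisons lie below 0, that of Tspan2 in CTK2+GAL versus GAL from -1.74 to -1.44. The intervals of both galinex comparisons and of the interaction include 0.

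Whether the 4 genes fell by unequal amounts was tested on ratios within a library, which do not depend on how libraries are scaled. The log2 ratio of Tspan2 to Cldn11 was 2.11 ± 0.070 in GAL and 1.45 ± 0.049 in CTK2+GAL (SD, n = 3), a difference of -0.66. That of Tspan2 to Mag went from 1.52 ± 0.13 to 0.94 ± 0.069, a difference of -0.58. That of Tspan2 to Mog went from 6.09 ± 0.10 to 5.49 ± 0.18, a difference of -0.61. With each library left out in turn these differences ran from -0.69 to -0.62, -0.64 to -0.51 and -0.69 to -0.51, and without GAL replicate 3 they were -0.68, -0.59 and -0.65. In these 3 ratios the libraries of the groups did not overlap, so the exact two-sided permutation p was 0.1, the smallest that 3 against 3 libraries can give, and 0.2 after Benjamini-Hochberg adjustment over the 6 ratios. The design therefore cannot pass 0.05 on this test.

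The ratios among the other 3 genes moved less. Cldn11 to Mag differed by 0.081 (exact permutation p = 0.4, adjusted 0.6), Cldn11 to Mog by 0.052 (exact permutation p = 0.7, adjusted 0.8) and Mag to Mog by -0.030 (exact permutation p = 0.8, adjusted 0.8), and the groups overlapped in each. With each library left out in turn, Cldn11 to Mag ran from 0.023, without CTK2+GAL replicate 3, to 0.14, without CTK2+GAL replicate 1. Cldn11 to Mog ran from -0.050, without CTK2+GAL replicate 3, to 0.15, without CTK2+GAL replicate 2, and Mag to Mog from -0.084, without CTK2+GAL replicate 1, to 0.069, without CTK2+GAL replicate 2, so the direction of the last 2 ratios rests on single libraries. Without GAL replicate 3 the 3 differences were 0.088, 0.028 and -0.060. In CTK-2 versus CTL the differences, as a description, were -0.83, -0.50 and -0.42 for Tspan2 to Cldn11, Mag and Mog. There the difference was 0.33 for Cldn11 to Mag, 0.41 for Cldn11 to Mog and 0.075 for Mag to Mog.

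**Figure D3:**
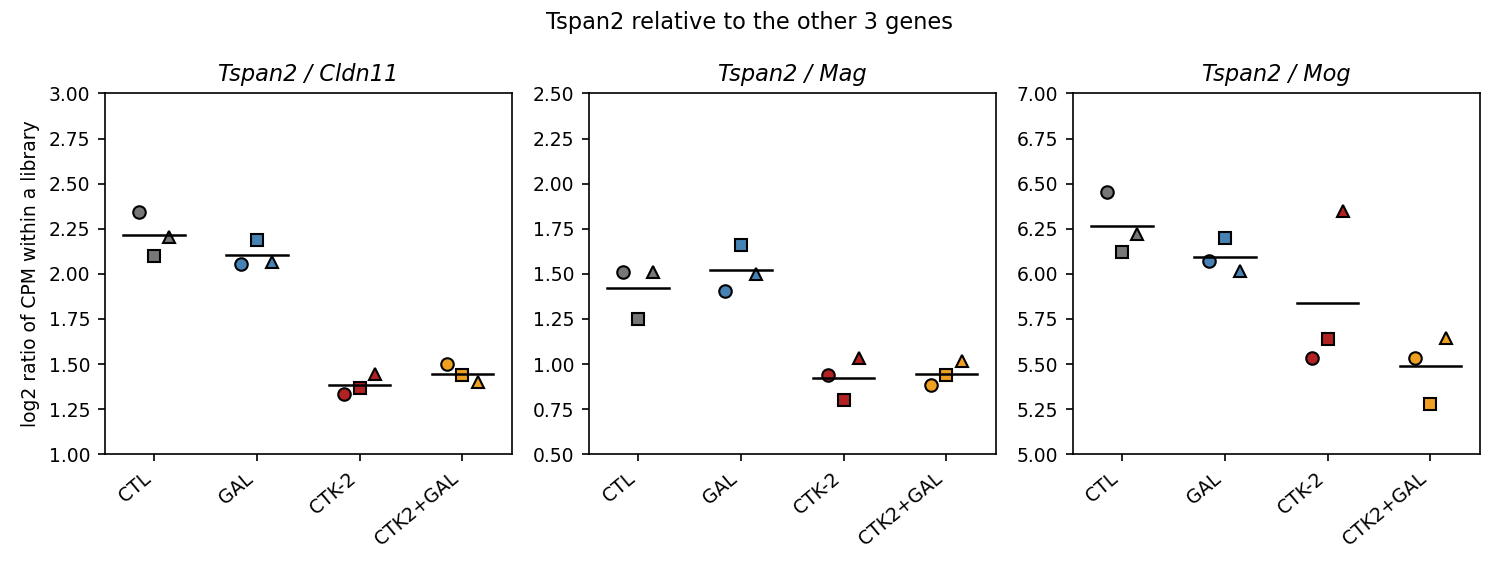
Log2 ratio of the CPM of Tspan2 to that of Cldn11, Mag and Mog within each library (vertical axes, each spanning 2 log2 units but with different limits), by group, with 1 point for each library and a bar at the group mean. The CTK2+GAL libraries lie below the GAL libraries in each panel, with means of 1.45 against 2.11 for Tspan2 to Cldn11, and in the Tspan2 to Mog panel CTK-2 replicate 3, where Mog had 10 counts, lies among the libraries without cytokines.

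Galinex after cytokines was compared with cytokines alone to see whether any of the 4 genes moved back towards its level without cytokines. In CTK2+GAL, Tspan2 was at 103% of its CTK-2 level (95% confidence interval 92.5% to 114%), whereas CTL was at 308%. Cldn11 was at 98.8% (88.1% to 111%) against 173% in CTL, and Mag was at 101% (88.3% to 115%) against 218%. For these 3 genes the upper end of the interval lay far below the CTL level. Mog was at 127% (87.3% to 185%) against 222%, an interval that leaves room for an increase of a size that its counts cannot resolve.

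The corresponding log2 fold changes were 0.036 (SE 0.0703) for Tspan2, -0.018 (SE 0.0782) for Cldn11, 0.0093 (SE 0.0898) for Mag and 0.34 (SE 0.257) for Mog, each with an edgeR adjusted p of 1. The value of Mog was 0.12 without CTK-2 replicate 3, where it had 10 counts. The groups overlapped in the 4 genes, while 11.5% of the genes tested had CTK2+GAL libraries wholly to one side of CTK-2. Of the 13348 genes, edgeR called 0 in this comparison (0%), with 545 at an unadjusted p under 0.05, and DESeq2 called 0, with 241 at an unadjusted p under 0.05.

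Galinex without cytokines was compared with CTL in the same way. Tspan2 had a log2 fold change of 0.00042 (95% confidence interval -0.14 to 0.14), Cldn11 of 0.10 (-0.046 to 0.25), Mag of -0.11 (-0.28 to 0.063) and Mog of 0.17 (-0.25 to 0.60), each with an edgeR adjusted p of 1. With each library left out in turn, Mag ran from -0.21 without CTL replicate 3 to -0.028 without CTL replicate 2, Cldn11 from 0.049 to 0.16 without the same libraries, and Mog from 0.13 to 0.24 likewise. Libraries of the same number in CTL and GAL deviated together, and within these 3 pairs Cldn11 and Mog were higher in GAL in 3, Tspan2 in 2 and Mag in 1. A fit of CTL and GAL with the pairs as a block gave 0.0035 for Tspan2, 0.10 for Cldn11, -0.10 for Mag and 0.16 for Mog, with edgeR adjusted p of 1, 0.99, 0.99 and 0.99. The GAL libraries of Mog lay wholly above those of CTL, as those of 8.32% of the genes tested lay wholly to one side. In this comparison edgeR called 0 genes (0%), with 574 at an unadjusted p under 0.05, and DESeq2 called 0, with 260. With CTL replicate 3 and GAL replicate 3 left out, edgeR called 4 genes, none of them among these 4, whose values were then -0.011 for Tspan2, 0.078 for Cldn11, -0.18 for Mag and 0.14 for Mog.

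The interaction asks whether the cytokine difference was the same with and without galinex. Its log2 estimate was 0.035 (SE 0.0974) for Tspan2, -0.12 (SE 0.106) for Cldn11, 0.12 (SE 0.122) for Mag and 0.17 (SE 0.326) for Mog, each with an edgeR adjusted p of 1. The 95% confidence interval ran from -0.17 to 0.24 for Tspan2, -0.34 to 0.10 for Cldn11, -0.14 to 0.38 for Mag and -0.51 to 0.86 for Mog. It was called in 0 genes (0%) by edgeR, with 376 at an unadjusted p under 0.05, and in 0 by DESeq2, with 123. Without CTL replicate 3 and GAL replicate 3 it was called in 6 genes, and the estimates of the 4 genes, which were not among them, were 0.048, -0.094, 0.19 and 0.21.

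Other genes of the sheath and of maturation were taken from lists, and only listed genes with a symbol could be examined, each of which the study's own list for CTK-2 and CTL holds, so that their counts are not independent evidence of a cytokine response. Symbols were assigned to 1775 of the 1786 entries of the study's list. A listed gene without a symbol was therefore, with few possible exceptions, absent from it under that name. Of the 1775 tested genes with a symbol, 26.7% were called lower and 58.9% higher in CTK2+GAL versus GAL, against 5.74% and 11.7% of all genes tested, and the median log2 fold change of those with a symbol was 0.75. Among 27 further proteins of the myelin membrane and sheath and enzymes of its lipids, 8 had a symbol. In CTK2+GAL versus GAL 6 of the 8 were called lower and 1 higher, where 26.7% of genes with a symbol were called lower, and the median log2 fold change was -1.10. Ugt8, the enzyme that makes galactosylceramide, fell from 767 ± 37.7 to 347 ± 22.9 CPM (SD, n = 3), and its log2 fold change was -1.14 (SE 0.0625, edgeR adjusted p 8e-11). Fa2h, which hydroxylates the fatty acids of myelin lipids, fell by 1.25 on the log2 scale, and Tppp, which encodes a microtubule-binding protein of oligodendrocytes, fell by 1.77. Tspan2 had a lower log2 fold change than Ugt8 and Fa2h and a higher one than Tppp. The gene called higher was Pmp22, best known from peripheral myelin, with a log2 fold change of 1.18, and the gene not called was Pllp, with 0.45. Pmp22 and Pllp were named after their values were seen.

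The tetraspanin family, to which Tspan2 belongs, moved in both directions. Of 24 other members 6 had a symbol, and in CTK2+GAL versus GAL 2 were called lower and 2 higher, with a median log2 fold change of 0.63. Of all genes with a symbol, 26.7% were called lower and 58.9% higher, with a median of 0.75. Tspan3 fell from 795 ± 28.7 to 430.4 ± 5.81 CPM, with a log2 fold change of -0.88. Tspan7 rose from 438 ± 44.3 to 763 ± 18.5 CPM, with a log2 fold change of 0.80, and Cd81 rose from 2.90 ± 0.183 to 7.31 ± 0.343 CPM, with 1.35. None of 21 other claudins and tight junction partners of Cldn11 had a symbol, and they were not analysed here. Of 19 further genes for contact between axon and glia, the setting of Mag, 1 had a symbol. This was Nfasc, whose glial form joins the myelin loops to the axon, and it fell from 3088 ± 34.0 to 1460.4 ± 28.9 CPM, with a log2 fold change of -1.08.

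Regulators of maturation moved in both directions, as did genes with a symbol in general. Of the latter, 58.9% were called higher and 26.7% lower in CTK2+GAL versus GAL. Of 24 transcription factors that act in oligodendrocyte maturation 7 had a symbol, of which 4 were called higher and 2 lower, and the median log2 fold change was 0.63. These counts are near the shares among all genes with a symbol. Sox9, a factor of early glial cells, rose by 1.81 and Nkx2-2, a factor of the OPC stage and early differentiation, rose by 0.79, whereas Zeb2, which supports differentiation, fell by 0.68 on the log2 scale. Of 20 inhibitors of maturation 4 had a symbol, of which 2 were called higher and 2 lower, with a median of 0.048. Sox11 rose by 1.84 and Hes5 by 0.88, whereas Id2 fell by 0.79 on the log2 scale. Without CTL replicate 3 and GAL replicate 3, the same genes of these lists were called in CTK2+GAL versus GAL in the same directions, and the medians were -1.07 for the myelin list, 0.58 for the tetraspanins, 0.64 for the transcription factors and 0.068 for the inhibitors. With the 12 libraries, edgeR called no gene of these lists in either galinex comparison or in the interaction.

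**Figure D4:**
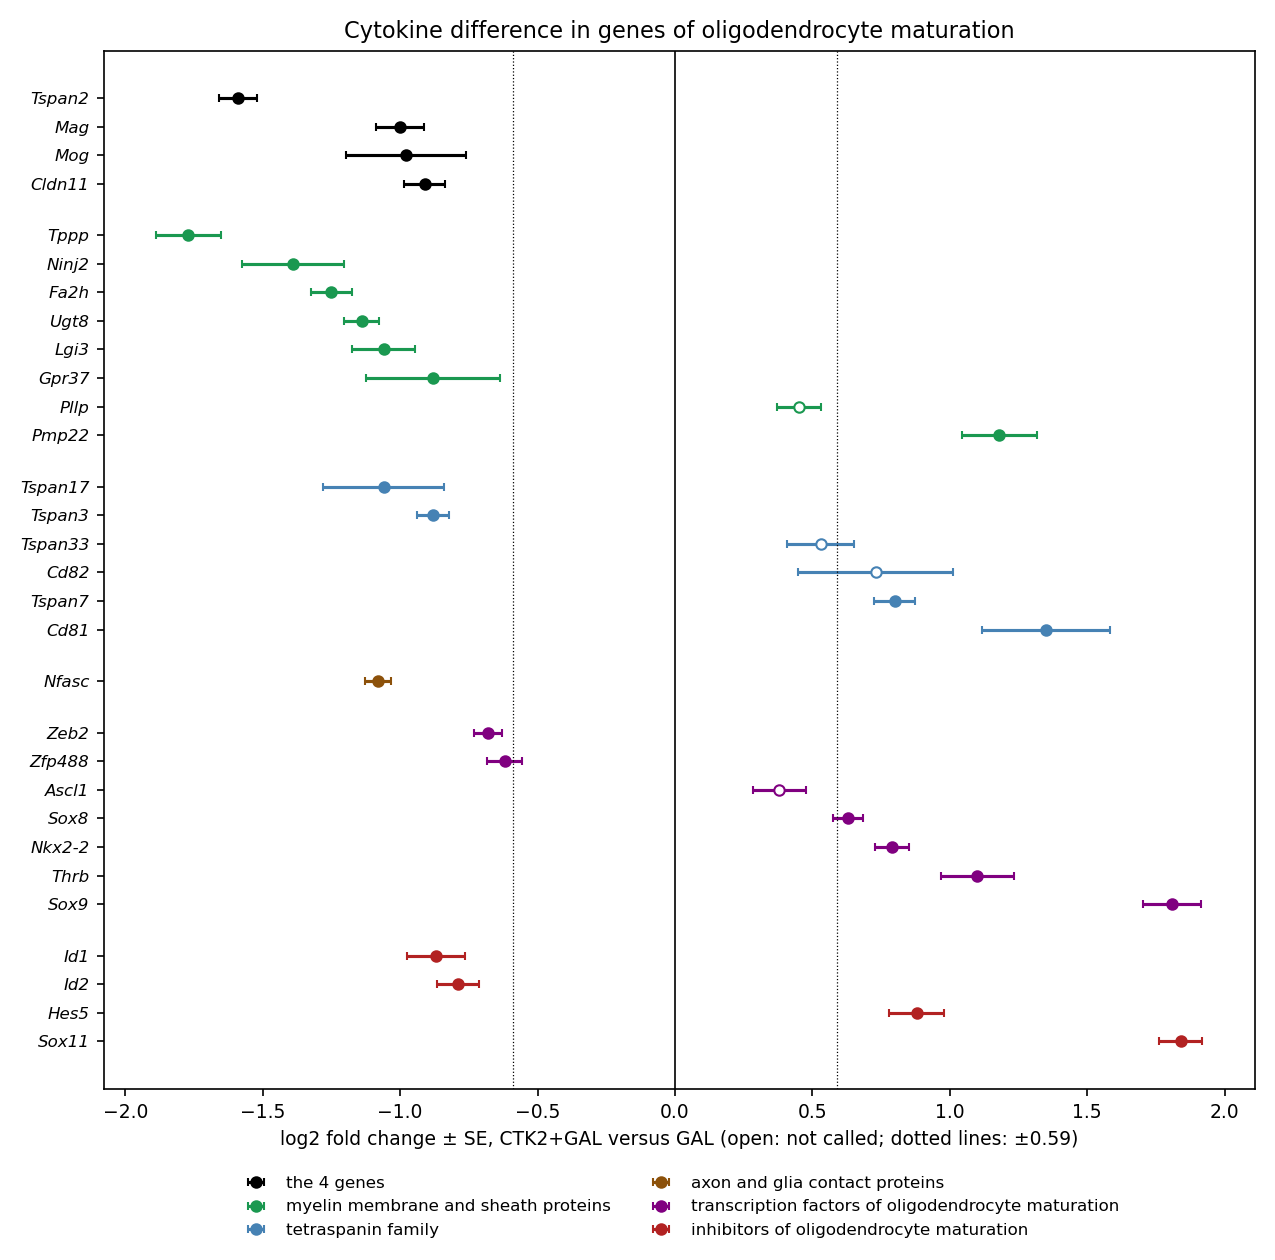
Log2 fold change ± SE (horizontal axis) in CTK2+GAL versus GAL for the 4 genes and for the listed genes with a symbol, coloured by list, with open points for genes not called and dotted lines at 0.59 in either direction. The 4 genes lie left of the lower line together with 6 of 8 further myelin genes such as Ugt8 at -1.14. These 8 are the ones with a symbol among 27 listed, and 26.7% of all genes with a symbol were called lower. The tetraspanins and the regulators lie on both sides.

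For each of the 4 genes up to 3 genes with the most similar levels are given, taken from the 1774 other genes with a symbol, by Pearson's r of log2(CPM + 1) over the 12 libraries. For Tspan2 these were Rps6ka5 (r = 1.0), Map1b (0.998) and Hmgcs1 (0.998). For Cldn11 they were Eif2b1 (0.997) and Rab33a (0.995), and for Mag they were Matn4 (0.993), Mfsd2a (0.992) and Pld1 (0.992). For Mog, whose counts are low, they were Ss18l2 (0.975), Kcnn2 (0.968) and Sh2d5 (0.960). Similarity of pattern did not mean similarity of size, since Rps6ka5 had a log2 fold change of -2.02 and Hmgcs1 of -1.23 in CTK2+GAL versus GAL, on either side of that of Tspan2. The libraries fall into 2 clusters, with and without cytokines, so these r values mostly describe that split, and they share libraries and depth. Without CTL replicate 3 and GAL replicate 3 the r of these genes was 0.965 or higher.

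Markers of OPCs and of other cell types had a symbol only if the study's list for CTK-2 and CTL holds them. A difference with cytokines was therefore likely beforehand. Most of these markers were higher with cytokines, as were most genes with a symbol, unlike the 4 genes. Of 8 OPC markers 4 had a symbol, and their summed level ran from 2309 to 2554 CPM in CTL, 2393 to 2568 in GAL, 4231 to 4511 in CTK-2 and 4188 to 4514 in CTK2+GAL. All 4 were called higher in CTK2+GAL versus GAL, where 11.7% of the genes tested and 58.9% of those with a symbol were called higher, and Cspg4, the NG2 proteoglycan of OPCs, had a log2 fold change of 2.04. Of 12 microglia markers 4 had a symbol, summing to 2.24 to 9.73 CPM in CTL, 3.10 to 10.5 in GAL, 18.5 to 24.3 in CTK-2 and 19.6 to 20.8 in CTK2+GAL. The highest sums without cytokines, 9.73 and 10.5 CPM, were those of CTL replicate 3 and GAL replicate 3, the libraries that stood apart, while the other CTL libraries were at 2.24 and 4.37 and the other GAL libraries at 3.10 and 3.18. Of the 4 markers, 3 were called higher with the 12 libraries and all 4 without these 2 libraries, when Csf1r, named after its values were seen, went from a log2 fold change of 0.61 to 1.53 (edgeR adjusted p 0.03) and the median from 1.93 to 2.88. Ptprc was at 0 counts in CTL replicate 2 and in GAL replicates 1 and 2.

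Of 8 astrocyte markers 2 had a symbol, summing to 305 to 388 CPM in CTL, 307 to 373 in GAL, 194 to 196 in CTK-2 and 192 to 206 in CTK2+GAL, and both were called lower, where 26.7% of genes with a symbol were. Of 8 neuron markers 1 had a symbol, Tubb3, at 81.7 to 89.0 CPM in CTL, 80.1 to 98.7 in GAL, 156 to 189 in CTK-2 and 171 to 181 in CTK2+GAL. Of 8 fibroblast and vessel markers 1 had a symbol, Col1a2, at 0.688 to 1.59, 1.34 to 1.94, 6.36 to 7.97 and 4.86 to 6.20 CPM in the same order. Tubb3 and Col1a2 were called higher in CTK2+GAL versus GAL, where 58.9% of genes with a symbol were. The calls of the OPC, astrocyte, neuron and fibroblast and vessel markers were the same without CTL replicate 3 and GAL replicate 3. The part of the marker lists in the decrease of the 4 genes was not tested. The OPC label of the cultures is that of the sample titles. Of the OPC markers, Pdgfra, Cspg4, Ptprz1 and Cspg5 could be examined and were present in every library. The 2 astrocyte markers and Tubb3 were present in every library too, so presence alone does not identify the cells.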

How the data were processed

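RNA was measured in 12 libraries of cultured rat OPCs. The authors deposited raw counts of read pairs per gene, made after FastQC and STAR with featureCounts 2.0.0 on exons of Ensembl 112 (mRatBN7.2), counting reversely stranded pairs with both ends mapped. The tables name genes by Ensembl identifier, so symbols were assigned by matching the mean count and log2 fold change of a supplementary gene table to the counts (1775 of 1786 entries, of which 1744 had a single candidate). Of 1758 pairs with a chromosome in both annotations, 99.9% shared it, against 5.88% after shuffling. Genes outside that table were not analysed by name. No value of that table is reported.

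Genes averaging at least 5 counts were normalized by TMM and fitted with edgeR 4.0.16 in R 4.3.3 (quasi-likelihood, all 12 libraries, 4 group means), with Benjamini-Hochberg adjustment over 13348 genes. The SE is the size of the log2 fold change over the root of F. DESeq2 1.42.0, other scalings, filters, group-wise fits, a replicate block and omission of each library were alternatives. The script was tested on simulated data. Named genes are the 4 genes, up to 3 of each list by smallest adjusted p in CTK2+GAL versus GAL, and the 3 most similar genes to each. Some genes that the rule or a list gives are not reported here. Members and lists were chosen with earlier results of these data known. Sequences are from RefSeq (GRCr8), which matched 3 of 4 genes.

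Same-numbered CTL and GAL libraries deviated together from their group means (r = 0.46, 0.49 and 0.80 over 9412 genes), so their numbers were treated as pairs in alternative fits with a block, while the fit reported has no block. Those of CTK-2 and CTK2+GAL did not (0.11, 0.05 and -0.05). Imaging and quantitative PCR were not used here.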

Additional observations from a re-analysis of the deposited data

How the results depend on the processing

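The calls of Tspan2, Cldn11, Mag and Mog in CTK-2 versus CTL and in CTK2+GAL versus GAL held under each of 15 alternatives, with log2 fold changes in CTK2+GAL versus GAL of -1.63 to -1.54, -0.99 to -0.87, -1.03 to -0.95 and -1.05 to -0.93. None of the 4 was called in a galinex comparison or the interaction under any alternative. Without a fold threshold 5213 genes were called in CTK-2 versus CTL and 5290 in CTK2+GAL versus GAL, and without a filter on low counts 2 were called in GAL versus CTL and 4 in the interaction. With CTL replicate 3 and GAL replicate 3 both left out, an alternative chosen after seeing the data, these counts were 4 and 6.

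Values near 0 changed sign. Tspan2 in GAL versus CTL was -0.00046 with library totals, -0.00099 without a filter, -0.00068 with filterByExpr, -0.0016 with the 15% of genes of lowest interquartile range removed, -0.00014 with only the groups compared and -0.011 without those 2 libraries. With 1 library left out it ran from -0.057 to 0.066, and its interaction from -0.030 to 0.092. In CTK2+GAL versus CTK-2 the range was -0.0083 to 0.056 for Tspan2, -0.090 to 0.024 for Cldn11 and -0.057 to 0.076 for Mag, and the interaction of Mog ran from -0.051 to 0.32. The cause was not tested.

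With the replicate number as a block, 2320 genes were called in CTK-2 versus CTL, 2321 in CTK2+GAL versus GAL and 0 in the galinex comparisons and the interaction, and the log2 fold changes in CTK2+GAL versus GAL were -1.59, -0.91, -1.0 and -0.97. A block in a fit of CTL and GAL only, added after seeing the data, called 0 genes and gave 0.0035 for Tspan2, 0.10 for Cldn11, -0.10 for Mag and 0.16 for Mog in GAL versus CTL. The block changed no call of the 4 genes. Depth limits Mog, at 10 to 41 counts for each library.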
